A study of Prunus avium with 21 samples.

Results

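Hydrogen cyanamide changes gene expression in dormant cherry buds within a day, and the size of that change was not the same a few days later. The measurement described here is the difference between the treatment effect at 6 days after treatment (dat) and the treatment effect at 1 dat. It was taken in flower buds of sweet cherry (*Prunus avium* L., cultivar 'Burlat') from 12 of the 21 RNAseq libraries of the series, 3 in each of 4 groups, namely treated and control buds at 1 and at 6 dat. Treated branches had been sprayed with 2% Dormex, a commercial hydrogen cyanamide solution, and control branches with deionized water. All branches were cut in winter from trees 4, 5 and 6, before their chill requirement was met, and were forced in the warm under constant light, so the groups share the cutting and the forcing as well as the trees. Each library pools the flower buds of 1 whole branch, and a different branch was taken for each treatment and day.

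In the text, an effect is the mean of the treated libraries minus the mean of the control libraries on the log2(FPKM + 0.5) scale, and the difference is the effect at 6 dat minus the effect at 1 dat. A negative difference therefore belongs to a transcript that stood lower in treated buds, relative to control buds, at 6 dat than at 1 dat. FPKM are fragments of a library scaled by transcript length and by the mapped total. Every transcript with a mean of at least 0.5 FPKM entered 1 limma fit, and a difference was called at a Benjamini-Hochberg adjusted p of at most 0.05 and a size of at least 1 on the log2 scale. All adjusted p below come from that fit over 62976 transcripts, and errors after ± are standard errors (SE) of the fit unless SD is written.

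As background, hydrogen cyanamide is used in orchards to break the dormancy of buds, and it is known to inhibit catalase and to be followed by oxidative and respiratory stress in bud tissue. Plants detoxify reactive compounds by reducing them, by coupling them to glutathione with glutathione S-transferases, by attaching a sugar with UDP-glycosyltransferases, and by pumping the products out of the cytosol. Cyanide is detoxified by cyanoalanine synthase, which joins it to cysteine, and by nitrilases of the NIT4 type. Bud break itself is linked to the balance of gibberellins, cytokinins and abscisic acid and to loosening of cell walls.

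The members that stand for the main patterns can be identified by their sequence. The assembled transcripts carry no genome coordinates, so 3 of them are shown by the start of the longest open reading frame in the first 399 bases held, with the initial ATG in capitals. *OPR2* (TR13558|c2_g1_i1) stands for an early effect that was no longer called at 6 dat, *NIT4A* (TR24496|c0_g1_i1) for a smaller decline among the cyanide genes, and *IPT3* (TR4571|c0_g1_i1) for an effect that turned its direction.
OPR2: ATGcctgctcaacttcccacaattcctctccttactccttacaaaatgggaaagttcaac
NIT4A: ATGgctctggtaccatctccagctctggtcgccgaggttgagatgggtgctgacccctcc
IPT3: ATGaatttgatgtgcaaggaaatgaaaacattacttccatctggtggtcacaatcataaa

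The effect was lower at 6 than at 1 dat in 654 transcripts of 536 assembled genes (1.04% of the transcripts tested) and higher in 351 transcripts of 332 assembled genes (0.557%). Over the 654 transcripts, the median effect passed from 1.82 at 1 dat through 0.845 at 3 dat to -0.354 at 6 dat. Over the 351, it passed from -0.582 through 0.259 to 1.07. Over all transcripts tested, the median difference was -0.012, and rescaling the libraries by median ratios moved it to -0.040. With the replicate block of tree and day, in which each treated branch was set against the control branch of its own tree, 137 and 35 transcripts were called. With trees 5 and 6 only at 1 dat, the counts were 291 and 123. Leaving out 1 library moved the count of lower effects by more than 1.5 times for treated tree 6 at 1 dat (394), control tree 5 at 1 dat (435) and control tree 4 at 6 dat (433). It did so for the count of higher effects without treated tree 6 at 1 dat (228), treated tree 5 at 6 dat (230), control tree 4 or 5 at 1 dat (218 and 219) and control tree 4 or 5 at 6 dat (230 and 224).

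The libraries at 3 dat are not part of the difference. The effect at 3 dat lay between those at 1 and 6 dat in 609 of the 654 transcripts (93.1%) and in 302 of the 351 (86.0%). Transcripts chosen for a wide gap between 2 days leave much room between them, so these shares are a description only. The 3 trees gave like values when each was read alone. The median effect over the 654 transcripts was 1.74, 1.78 and 1.91 in trees 4, 5 and 6 at 1 dat, 0.775, 1.00 and 0.785 at 3 dat, and -0.304, -0.400 and -0.371 at 6 dat. At 3 dat, tree 5 therefore kept the largest part of the early effect. These medians too describe transcripts chosen for their difference and are no test.

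The most frequent class among the lower effects was an early higher level in treated buds that was not called at 6 dat. At 1 dat, 1757 transcripts were called higher in treated buds (2.79%) and 627 lower (0.996%), and at 6 dat 1258 were called higher (2.00%) and 1233 lower (1.96%). Of the 654 transcripts with a lower effect at 6 dat, 371 were called higher at 1 dat and were not called at 6 dat, with median effects of 2.45 and 0.0884. A further 43 were called higher at both days, their median effect passing from 4.02 to 1.59. In 29 the treated buds were called higher at 1 dat and lower at 6 dat, in 141 they were called lower at 6 dat alone, in 2 lower at both days, and in 68 neither day was called by itself.

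**Figure D1:**
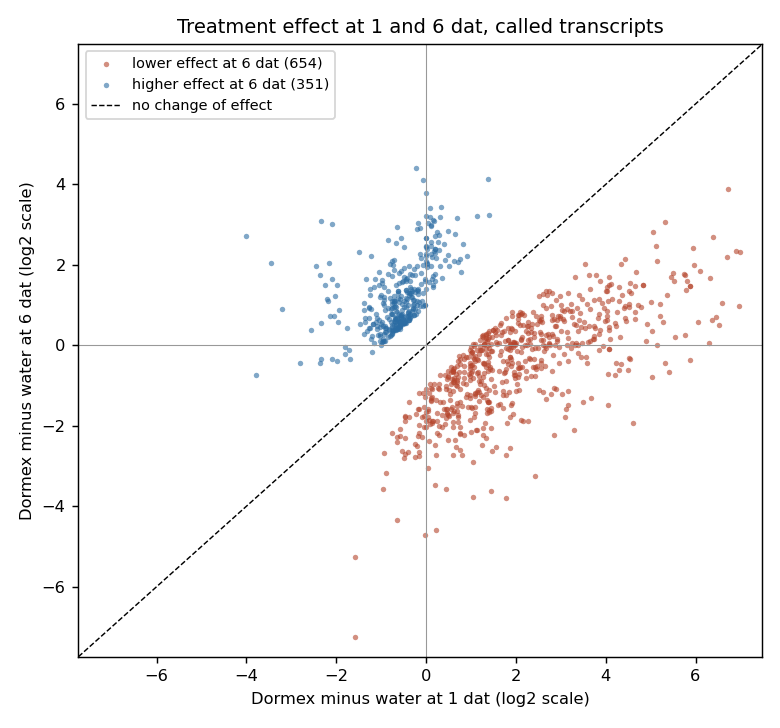
Treatment effect at 1 dat (x axis) against the effect at 6 dat (y axis), both as Dormex minus water on the log2(FPKM + 0.5) scale, for the 654 transcripts with a lower and the 351 with a higher effect at 6 dat. Each point is 1 transcript and the dashed line marks equal effects, so the red cloud to the right of 0 and near 0 in height holds transcripts called higher at 1 dat and not at 6 dat.

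Late effects were the most frequent class in the opposite direction. Of the 351 transcripts with a higher effect at 6 dat, 161 were called higher in treated buds at 6 dat alone, with median effects of -0.214 at 1 dat and 1.78 at 6 dat. In 56 the treated buds were called lower at 1 dat alone, in 5 lower at 1 dat and higher at 6 dat, in 3 higher at both days, and in 126 neither day was called by itself.

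A change of effect can come from the treated buds, from the control buds, or from both, and the same fit separates them. From 1 to 6 dat, 4229 transcripts rose in treated buds (6.72%) and 2739 fell (4.35%), while 3335 rose in control buds (5.30%) and 1604 fell (2.55%). Among the 654 transcripts, 320 fell in treated buds alone, 62 fell in treated buds and rose in control buds, and 164 rose in control buds alone. In the remaining transcripts, 23 fell and 17 rose in both, and 68 passed neither test. Among the 351, 207 rose in treated buds alone, 48 rose in both, 5 rose in treated and fell in control buds, 40 fell in control buds alone, 1 fell in both and 50 passed neither test. The water-sprayed buds thus moved as well, and in 164 of the 654 transcripts theirs was the only move that passed the test.

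**Figure D2:**
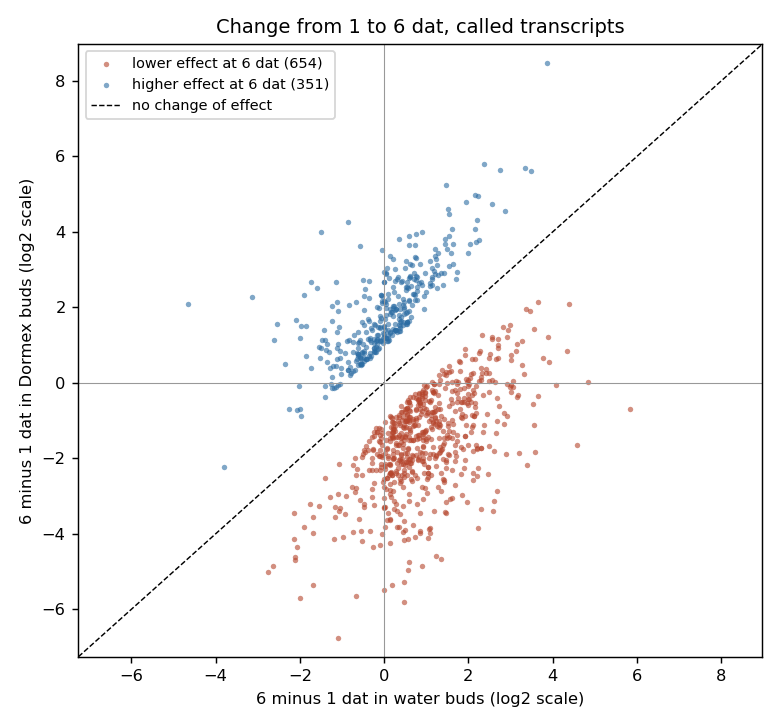
Change from 1 to 6 dat in control buds (x axis) against the change in treated buds (y axis), both on the log2(FPKM + 0.5) scale, for the same transcripts. Each point is 1 transcript, and its vertical distance from the dashed line is the difference of effects. Red points right of 0 and near 0 in height rose in control buds with little change in treated buds.

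Descriptions were at hand for 3497 of the transcripts tested. Of these, 399 had a lower effect (11.4%) and 49 a higher effect (1.4%) at 6 dat, with a median difference of -0.752. These descriptions were drawn from tables of transcripts that the study had called on these samples, and the table for 6 dat was held in part. No more than 49 of the 351 transcripts with a higher effect had a description. The counts of the gene groups below are therefore read against the described transcripts, and they are not independent evidence of a direction. RNA of whole buds was measured, so that fewer cells of a type and less RNA per cell cannot be told apart.

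The 12-oxophytodienoate reductases reduce double bonds of oxylipins, and 1 class of them makes the jasmonate precursor. They showed the largest fall of the median effect among the 29 lists, from 4.42 at 1 dat to 0.487 at 6 dat. Of 38 transcripts tested, 23 had a lower effect at 6 dat (60.5%), none a higher one, and the median difference was -3.31. Summed over the list, the level was 116 to 171 FPKM in control and 2784 to 3560 FPKM in treated buds at 1 dat. At 6 dat it was 160 to 198 FPKM in control and 246 to 363 FPKM in treated buds. The 38 transcripts belong to 20 assembled genes, and reads may have been divided between similar ones.

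*OPR2* shows this pattern in single libraries. At 1 dat, control buds of trees 4, 5 and 6 held 2.24, 0.386 and 0.996 FPKM and treated buds 126, 153 and 147 FPKM. At 6 dat, control buds held 4.17, 4.63 and 2.02 FPKM and treated buds 8.46, 5.17 and 2.87 FPKM. The groups were far apart at 1 dat and overlapped at 6 dat. The effect was 6.53 at 1 dat and 0.50 at 6 dat, a difference of -6.03 ± 0.69 (adjusted p = 0.000325). It came from a fall of 4.68 in treated buds (adjusted p = 8.19e-06), while the change of 1.35 in control buds did not pass the test (adjusted p = 0.0833).

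Other transcripts listed with jasmonate synthesis and action changed less. Among 18 transcripts of the list tested, 3 had a lower effect (16.7%) and 1 a higher effect (5.56%) at 6 dat. Of all described transcripts, 11.4% had a lower and 1.4% a higher effect. The median difference of the list was -0.410. Linoleate 9S-lipoxygenase 5 (TR32310|c1_g1_i1), which oxygenates fatty acids, is in the list by the words of its description. Whether it takes part in jasmonate synthesis was not tested. At 1 dat it held 3.11, 4.34 and 3.01 FPKM in control and 26.4, 29.9 and 27.6 FPKM in treated buds. It held 5.97, 7.49 and 5.99 FPKM in control and 16.2, 9.95 and 7.06 FPKM in treated buds at 6 dat, where the groups overlapped. Its difference was -2.19 ± 0.43 (adjusted p = 0.0144). Under the replicate block of tree and day, its adjusted p was 0.0691, and with trees 5 and 6 only at 1 dat 0.0756. The difference was -0.67 ± 0.31 for *AOS* (adjusted p = 0.349), 0.42 ± 0.47 for *AOC* (adjusted p = 0.773) and -0.26 ± 0.15 for *ACX4* (adjusted p = 0.508), which act on the route to jasmonic acid. For the flower regulators *MYB21* and *MYB108* it was -0.94 ± 0.31 (adjusted p = 0.150) and -0.50 ± 0.54 (adjusted p = 0.763). None of these 5 passed the test.

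Enzymes that couple compounds to glutathione or to sugars followed the early pattern in part. Of 46 glutathione S-transferase transcripts tested, 21 had a lower effect at 6 dat (45.7%) and none a higher one, with a median effect of 3.08 at 1 dat and 1.16 at 6 dat. The summed level of the list was 447 to 500 FPKM in control and 4360 to 5475 FPKM in treated buds at 1 dat, and 534 to 780 and 934 to 1408 FPKM at 6 dat. Of 117 UDP-glycosyltransferase transcripts, 28 had a lower (23.9%) and 2 a higher effect, and of 75 cytochrome P450 transcripts, 19 (25.3%) and 2. The summed level of each of these lists still differed between treated and control buds without overlap at 6 dat, so a gap remained.

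A glutathione S-transferase of the assembled gene TR33081|c1_g1 went further than its list. Its isoform TR33081|c1_g1_i7 held 3.42, 2.88 and 2.02 FPKM in control and 142, 132 and 137 FPKM in treated buds at 1 dat. The 6 dat values were 20.9, 16.0 and 9.10 FPKM in control and 8.51, 7.59 and 11.5 FPKM in treated buds. Treated buds stood above all control buds at 1 dat and within or below their range at 6 dat. Here a fall of 3.84 in treated buds met a rise of 2.22 in control buds, and the difference was -6.07 ± 0.67 (adjusted p = 0.000286). Summed over the 9 isoforms of the gene, the difference was -5.29 (adjusted p = 1.98e-05).

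Of 53 transcripts tested for aldo-keto and short-chain reductases of carbonyl compounds, 19 had a lower effect (35.8%) and none a higher one. Mannitol dehydrogenase TR17435|c0_g1_i1, which oxidises a sugar alcohol in other plants, is not a member of that list. At 1 dat it held 0, 0 and 0.0446 FPKM in control and 40.4, 40.8 and 40.1 FPKM in treated buds. By 6 dat it stood at 0.188, 0.249 and 0.193 FPKM in control and 0.286, 0.415 and 0.0513 FPKM in treated buds. It was thus near 0 in each group except treated buds at 1 dat. Its difference was -6.26 ± 0.45 (adjusted p = 1.09e-05). A second transcript of that description, TR12808|c3_g3_i2, differed by -4.95 ± 0.63 (adjusted p = 0.000773). The 2-alkenal and furanone reductases act on reactive lipid breakdown products. Of their 24 transcripts tested, 4 had a lower effect (16.7%, against 11.4% of described transcripts). Among them, TR25493|c0_g1_i4 stayed higher in treated buds at both days, with effects of 6.91 and 2.35, and differed by -4.57 ± 0.71 (adjusted p = 0.00309, and 0.168 with the replicate block of tree and day).

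Of 69 tested transcripts for transporters that export foreign compounds, 11 had a lower (15.9%) and 1 a higher effect, not far from the share of all described transcripts. The pleiotropic drug resistance protein TR37696|c0_g1_i1 held 0.0662, 0.0849 and 0.103 FPKM in control and 11.5, 12.0 and 13.7 FPKM in treated buds at 1 dat. At 6 dat the values were 0.0862, 0.116 and 0.0768 FPKM in control and 0.686, 0.298 and 0.276 FPKM in treated buds. The groups did not overlap at either day, yet the gap had narrowed, by -3.85 ± 0.56 on the log2 scale (adjusted p = 0.00188). The effect at 6 dat did not pass the test by itself (0.61, adjusted p = 0.438). ABC transporter G family member 11 (TR33083|c1_g2_i4), known in *Arabidopsis* for the export of cuticle lipids, differed by -2.53 ± 0.26 (adjusted p = 0.000194).

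**Figure D3:**
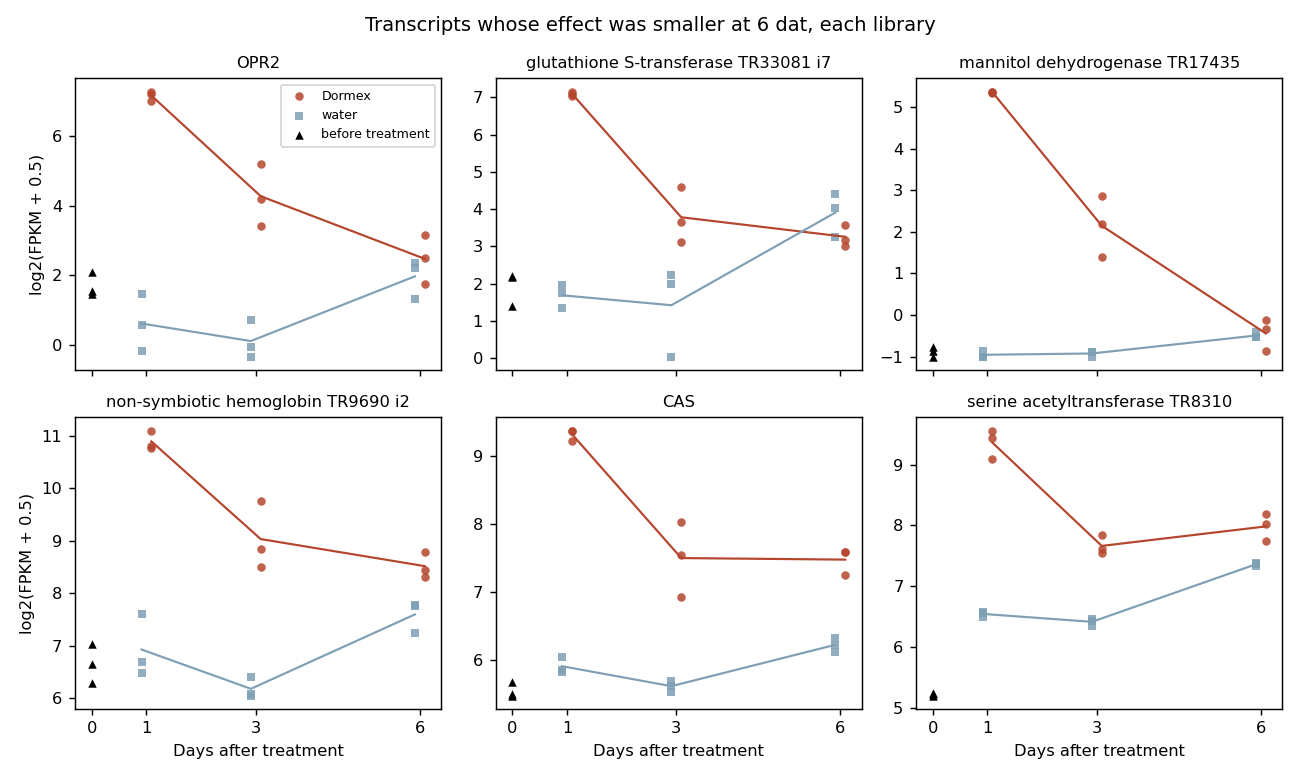
Level of 6 transcripts in each library, as log2(FPKM + 0.5) against days after treatment. Circles are treated, squares control and triangles untreated libraries (3 each, trees 4, 5 and 6), and lines join group means. Treated *OPR2* stood at 126 to 153 FPKM at 1 dat and at 2.87 to 8.46 FPKM at 6 dat, whereas *CAS* and serine acetyltransferase kept a gap to the controls at 6 dat.

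In cyanide detoxification the effect declined without reaching 0. *CAS* (TR10732|c0_g1_i1), which encodes cyanoalanine synthase, held 65.7, 56.6 and 57.6 FPKM in control and 658, 595 and 659 FPKM in treated buds at 1 dat. Later, at 6 dat, it stood at 69.1, 80.2 and 74.7 FPKM in control and 192, 152 and 192 FPKM in treated buds. All treated libraries stood above all control libraries at both days. An effect of 1.25 remained at 6 dat, and the difference was -2.15 ± 0.26 (adjusted p = 0.000647). *NIT4A*, which encodes the nitrilase of the next step, held 82.1, 72.0 and 80.3 FPKM in control and 243, 209 and 229 FPKM in treated buds at 1 dat. After 6 days it held 68.8, 67.1 and 70.2 FPKM in control and 98.2, 86.8 and 93.1 FPKM in treated buds, still without overlap. Its effect of 0.43 at 6 dat did not pass the test (adjusted p = 0.0668), and the difference was -1.10 ± 0.19 (adjusted p = 0.00552). In the fit with the replicate block of tree and day, the adjusted p were 0.0633 for *CAS* and 0.133 for *NIT4A*.

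Other isoforms of the *CAS* gene had negative differences as well. The difference was -2.57 ± 0.57 for TR10732|c0_g1_i4 (adjusted p = 0.0282) and -2.07 ± 0.56 for TR10732|c0_g1_i2 (adjusted p = 0.0763). The second did not pass the test. The call of TR10732|c0_g1_i4 was lost in 8 of the 12 fits that each left out 1 library, with an adjusted p of up to 0.0789, namely without any treated library at 1 dat, treated tree 6 at 6 dat, control tree 4 or 5 at 1 dat, or control tree 4 or 6 at 6 dat. It was also lost with the replicate block of tree and day (adjusted p = 0.135) or of tree (0.0508), with trees 5 and 6 only at 1 dat (0.0999) and with a pseudocount of 0.1 FPKM (0.145). TR10732|c0_g1_i3 stayed under the mean of 0.5 FPKM and was not tested. Reads may have been divided between the 4 isoforms, and their sum differed by -2.17 (adjusted p = 0.000255).

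Of 21 transcripts tested for cyanide and ethylene synthesis, 9 had a lower effect (42.9%, against 11.4% of described transcripts) and none a higher one. The median effect of the list passed from 2.47 to 1.22. Named genes that release cyanide or form ethylene were divided between a lower effect and no call. *ACO* (TR18526|c0_g1_i1), described as a homolog of the oxidase that forms ethylene and releases cyanide, held 0.282, 0.220 and 0.274 FPKM in control and 37.0, 37.0 and 29.4 FPKM in treated buds at 1 dat. Values at 6 dat were 0.473, 2.36 and 2.31 FPKM in control and 7.13, 3.08 and 7.32 FPKM in treated buds, still without overlap. Its difference was -3.93 ± 0.54 (adjusted p = 0.00138). For *SAMS 3*, which encodes the enzyme for the ethylene precursor S-adenosylmethionine, the effect passed from 2.69 to 1.24, a difference of -1.45 ± 0.25 (adjusted p = 0.00659), through a rise of 1.18 in control buds. The synthase *ACS* differed by -0.02 ± 0.83 (adjusted p = 0.996) and the mandelonitrile lyase *MDL1*, which releases cyanide from a breakdown product of prunasin, by -0.32 ± 0.84 (adjusted p = 0.922). Both were called higher in treated buds at both days. Under the replicate block of tree and day, the adjusted p were 0.103 for *ACO* and 0.0928 for *SAMS 3*.

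The cyanogenic beta-glucosidase *BGD* (TR26414|c0_g1_i2), which cleaves cyanogenic glucosides, is an unsure member. It held 1.07, 0.125 and 0.265 FPKM in control and 7.55, 8.83 and 5.40 FPKM in treated buds at 1 dat. The 6 dat values were 1.04, 0.363 and 0.762 FPKM in control and 1.16, 2.75 and 0.603 FPKM in treated buds, with overlap. The difference was -2.46 ± 0.58 (adjusted p = 0.0376). The call was lost in 9 of the 12 fits that each left out 1 library (adjusted p up to 0.102), the exceptions being treated tree 5 at 6 dat, control tree 4 at 1 dat and control tree 5 at 6 dat. It was lost as well with the replicate block of tree and day (adjusted p = 0.159), with trees 5 and 6 only at 1 dat (0.0548), with a pseudocount of 0.1 FPKM (0.0724), with no filter on low values (0.0580) and with the 12 libraries alone (0.0912). Summed over the 6 isoforms of its gene, the difference was -0.15 (adjusted p = 0.881).

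Sulfur assimilation supplies the cysteine for glutathione and for cyanoalanine. Of 27 transcripts of this list tested, 5 had a lower effect (18.5%, against 11.4% of described transcripts) and none a higher one. Serine acetyltransferase 1 (TR8310|c0_g1_i1), the enzyme before cysteine, held 89.4, 95.4 and 94.3 FPKM in control and 694, 542 and 752 FPKM in treated buds at 1 dat. By 6 dat it stood at 161, 165 and 166 FPKM in control and 291, 213 and 260 FPKM in treated buds. Treated buds remained above control buds, by 0.62 on the log2 scale in place of 2.81, and the difference was -2.19 ± 0.17 (adjusted p = 1.90e-05). For 5'-adenylylsulfate reductase 3 (TR20138|c0_g1_i1), which reduces activated sulfate, the difference of -2.30 ± 0.37 (adjusted p = 0.00397) came with a rise of 2.00 in control buds and a change of -0.29 in treated buds (adjusted p = 0.505). In its case the control buds reached 30.1, 36.1 and 38.8 FPKM at 6 dat and overlapped with treated buds at 51.1, 37.9 and 38.6 FPKM. Its adjusted p with the replicate block of tree and day was 0.0623.

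Of 25 glutaredoxin, thioredoxin and peroxidase transcripts tested, 3 had a lower effect (12.0%) and 1 a higher one, a share like that of all described transcripts. Of 5 hemoglobin and hypoxia transcripts tested, 2 had a lower effect (40.0%, against 11.4% of described transcripts). Both were isoforms of 1 assembled gene. Non-symbiotic hemoglobin TR9690|c0_g1_i2, of a family that scavenges nitric oxide and rises at low oxygen, held 195, 89.0 and 103 FPKM in control and 1790, 1749 and 2186 FPKM in treated buds at 1 dat. Later, at 6 dat, it stood at 220, 217 and 151 FPKM in control and 442, 348 and 318 FPKM in treated buds. The groups did not overlap at either day, although the effect of 0.92 at 6 dat did not pass the test (adjusted p = 0.0793), and the difference was -3.04 ± 0.42 (adjusted p = 0.00138, and 0.0511 with the replicate block of tree and day). The glutaredoxin *GRX* (TR23850|c0_g1_i1), which reduces disulfides with glutathione, held 130, 105 and 130 FPKM in control and 718, 749 and 866 FPKM in treated buds at 1 dat. After 6 days it held 110, 107 and 109 FPKM in control and 233, 190 and 208 FPKM in treated buds, a difference of -1.73 ± 0.32 (adjusted p = 0.00992, and 0.119 with that block). *GST23* differed by -3.78 ± 1.41 (adjusted p = 0.221), the catalase transcript *CAT1* (TR13462|c1_g1_i2) by -0.80 ± 0.61 (adjusted p = 0.628) and *Mn-SOD* by 0.23 ± 0.20 (adjusted p = 0.688). These 3 transcripts did not pass the test. The *CAT1* transcript is a minor isoform, and the 11 isoforms of its gene together had a higher effect at 6 dat, with a difference of 1.03 (adjusted p = 0.00540). Their summed level was 350 to 410 FPKM in control and 260 to 286 FPKM in treated buds at 1 dat, and 252 to 286 FPKM in control and 361 to 421 FPKM in treated buds at 6 dat, so that the order of the groups changed.

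Of 81 transcripts of wall enzymes and expansins tested, 9 had a lower (11.1%) and 3 a higher effect at 6 dat, the first a share near that of all described transcripts. *1,3BG* (TR33640|c1_g4_i1), described as an endo-glucanase, held 26.1, 27.1 and 29.4 FPKM in control and 220, 190 and 234 FPKM in treated buds at 1 dat. Values at 6 dat were 31.4, 35.2 and 19.2 FPKM in control and 59.9, 39.5 and 40.9 FPKM in treated buds, and the difference was -2.22 ± 0.38 (adjusted p = 0.00553, and 0.0928 with the replicate block of tree and day). *EXPA1* (TR9861|c0_g1_i4), an expansin that loosens walls, rose in both treatments, from 23.9, 18.8 and 29.7 to 281, 218 and 313 FPKM in control buds and from 63.8, 60.2 and 57.9 to 209, 215 and 269 FPKM in treated buds. Treated buds led at 1 dat and overlapped with control buds at 6 dat, a difference of -1.56 ± 0.33 (adjusted p = 0.0208). The *EXPA1* call was lost without treated tree 4 at 1 dat (adjusted p = 0.0525), treated tree 5 at 6 dat (0.0543), control tree 5 at 1 dat (0.0601) or control tree 4 at 6 dat (0.0546), with the replicate block of tree and day (0.162), and with trees 5 and 6 only at 1 dat (0.102). *EXLB1* (TR8498|c0_g1_i1) and *EXPA11* differed by -2.65 ± 0.71 (adjusted p = 0.0705, and 0.0295 in the fit of isoforms summed per gene) and -0.93 ± 0.40 (adjusted p = 0.316).

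Among hormone genes outside the jasmonate group, 2 gibberellin oxidases of opposite function changed in the same direction. They do not stand for the gibberellin list. Of its 19 transcripts tested, 16 were not called and 3 had a lower effect (15.8%, against 11.4% of described transcripts). Their median difference was -0.163. Summed over the list, treated buds held 1198 to 1377 FPKM at 1 dat and 582 to 802 FPKM at 6 dat. Control buds stood above them at both days, at 1927 to 2212 and 1176 to 1871 FPKM. The gibberellin 2-oxidase GA2ox1 (TR11635|c0_g3_i1), of a family that inactivates gibberellins, held 1.89, 2.03 and 1.46 FPKM in control and 120, 122 and 162 FPKM in treated buds at 1 dat. The 6 dat values were 74.1, 59.5 and 35.4 FPKM in control and 150, 32.5 and 15.0 FPKM in treated buds. Control buds had caught up, with a rise of 4.58 (adjusted p = 0.00209), while treated buds spread widely, tree 4 at 150 FPKM and tree 6 at 15.0 FPKM. The difference was -6.23 ± 1.21 (adjusted p = 0.0132, and 0.0645 with trees 5 and 6 only at 1 dat).

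The gibberellin 3-oxidase TR19776|c0_g2_i3, of a family that makes active gibberellins, turned its direction. At 1 dat it held 1.51, 1.53 and 0.704 FPKM in control and 5.17, 6.21 and 7.77 FPKM in treated buds. By 6 dat it stood at 4.55, 3.71 and 3.22 FPKM in control and 1.37, 1.34 and 1.69 FPKM in treated buds. The groups did not overlap at either day and had changed places. The effect was 2.00 and then -1.13, and the difference was -3.13 ± 0.34 (adjusted p = 0.000269).

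The cytokinin gene *IPT3*, which encodes the enzyme of the first step of cytokinin synthesis, turned as well. At 1 dat it held 0.865, 0.869 and 0.898 FPKM in control and 5.43, 5.03 and 3.19 FPKM in treated buds. Later, at 6 dat, it stood at 2.51, 1.78 and 2.07 FPKM in control and 0.771, 0.437 and 0.847 FPKM in treated buds. Treated buds were above all control buds at 1 dat and below all of them at 6 dat. The effect of 1.84 became -1.15, a difference of -3.0 ± 0.42 (adjusted p = 0.00166), and *IPT3* fell by 2.08 in treated buds (adjusted p = 0.000175). The activating enzyme *LOG5* differed by -0.06 ± 0.52 (adjusted p = 0.980) and the receptor *HK4 X1* by 1.07 ± 0.58 (adjusted p = 0.445). The auxin synthesis gene *YUC10* differed by -1.48 ± 0.44 (adjusted p = 0.113).

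Of 28 heat shock and chaperone transcripts tested, 6 had a lower effect (21.4%) and none a higher one, 22 were not called, and the median effect of the list passed from 0.532 to -0.906. The class I heat shock protein TR24076|c0_g2_i1, a small chaperone, held 0.565, 0.319 and 0.576 FPKM in control and 8.19, 7.02 and 13.3 FPKM in treated buds at 1 dat. After 6 days it held 19.4, 14.6 and 4.79 FPKM in control and 5.28, 2.26 and 0.752 FPKM in treated buds. The groups were apart at 1 dat and overlapped slightly at 6 dat, where the mean of control buds was the higher one. Its difference was -5.40 ± 0.70 (adjusted p = 0.000871), made of a rise of 3.57 in control buds and a fall of 1.83 in treated buds. A heat shock 70 kDa protein (TR26945|c3_g2_i2) turned from an effect of 2.11 to -1.86, a difference of -3.96 ± 0.58 (adjusted p = 0.00211).

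**Figure D4:**
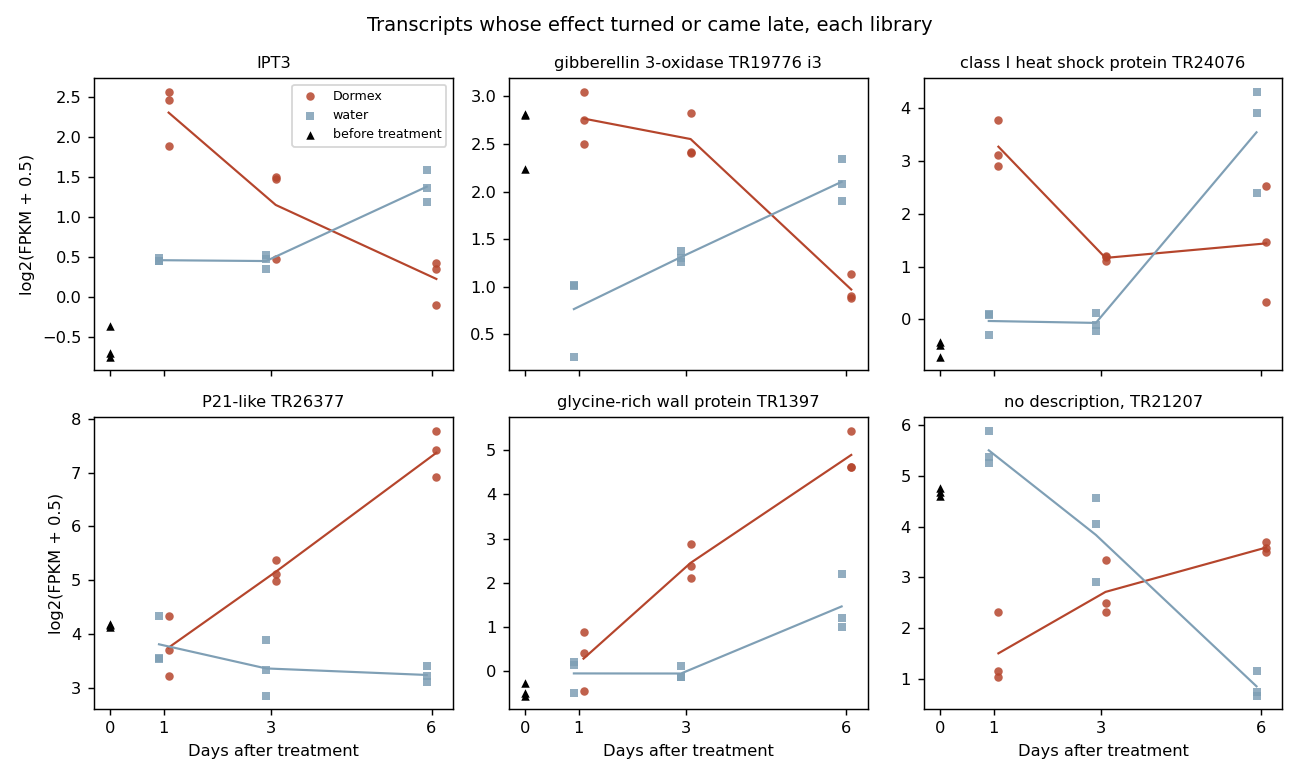
Level of 6 transcripts in each library, as log2(FPKM + 0.5) against days after treatment, with circles for treated, squares for control and triangles for untreated libraries (3 each) and lines through group means. In *IPT3*, the gibberellin 3-oxidase, the heat shock protein and TR21207 the lines cross between 1 and 6 dat, and in P21-like and the glycine-rich wall protein treated buds leave the controls after 1 dat.

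Other transcripts turned too, or came near to it. The calcium-binding protein CML19 (TR13825|c0_g1_i1) passed from an effect of 1.90 to -1.47 and rose by 3.91 in control buds (adjusted p = 1.20e-05), with a difference of -3.37 ± 0.56 (adjusted p = 0.00518). A methionyl-tRNA synthetase (TR14243|c0_g1_i1) passed from 1.35 to -1.68, a difference of -3.03 ± 0.42 (adjusted p = 0.00147). In the splicing factor U2AF isoform TR31322|c0_g1_i13, the difference was -3.24 ± 0.41 (adjusted p = 0.000773), but the 16 isoforms of that gene together differed by -0.31 (adjusted p = 0.0402). The stress-associated zinc finger protein SAP12 (TR26679|c0_g1_i4) had the most negative difference among described transcripts with a group mean of at least 5 FPKM, -6.53 ± 0.82 (adjusted p = 0.000757). It was under 0.05 FPKM in control buds at 1 dat and at 26.7, 29.3 and 30.2 FPKM in them at 6 dat, against 8.33, 10.3 and 19.5 and then 13.1, 16.2 and 1.47 FPKM in treated buds. Its 4 isoforms together differed by -3.29 (adjusted p = 0.000338).

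Turning in the opposite sense, from lower to higher in treated buds, was called in 5 transcripts. FKBP17-2 (TR12998|c1_g3_i1), a chloroplast peptidyl-prolyl isomerase, held 0.947 to 2.72 FPKM in control buds and under 0.01 FPKM in all 3 treated libraries at 1 dat. At 6 dat, treated buds held 6.47, 6.39 and 17.4 FPKM, and control buds under 0.01, 1.53 and 1.08 FPKM. The difference was 5.12 ± 0.79 (adjusted p = 0.00298). TR21207|c0_g2_i1 has no description and was chosen after its values were seen, for the largest difference among undescribed transcripts with a group mean of at least 5 FPKM. It held 37.6, 40.8 and 58.8 FPKM in control and 1.73, 1.55 and 4.46 FPKM in treated buds at 1 dat. Values at 6 dat were 1.09, 1.71 and 1.17 FPKM in control and 10.8, 11.4 and 12.4 FPKM in treated buds. Groups that were well apart at 1 dat had changed places at 6 dat, and the difference was 6.73 ± 0.56 (adjusted p = 2.56e-05).

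In 141 transcripts treated buds were called lower than control buds at 6 dat and were not called at 1 dat. The sugar transporter SWEET1 isoform TR10466|c0_g1_i7, of a family that lets sugars leave cells, held 7.74, 9.52 and 14.0 FPKM in control and 17.6, 21.6 and 21.9 FPKM in treated buds at 1 dat. The 6 dat values were 7.73, 5.51 and 8.64 FPKM in control and 1.59, 1.92 and 1.37 FPKM in treated buds. Treated buds were the higher group at 1 dat, with an effect of 0.97 that was under the fold threshold, and the lower group at 6 dat. The difference was -2.83 ± 0.35 (adjusted p = 0.000608), and the 10 isoforms of the gene together differed by -2.59 (adjusted p = 0.000180). DREB2A (TR8931|c0_g1_i1), a transcription factor of the drought response, had an effect of -1.78 at 6 dat (adjusted p = 0.00901), while that of 1.07 at 1 dat did not pass the test (adjusted p = 0.109) although its groups did not overlap then. Its difference was -2.85 ± 0.53 (adjusted p = 0.00992, and 0.114 with the replicate block of tree and day).

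One of the 2 transcripts called lower at both days was an isoform of a desaturase. TR26734|c4_g2_i1, described as a fatty acid desaturase of monogalactosyldiacylglycerol, held 149, 172 and 171 FPKM in control and 60.2, 54.1 and 49.5 FPKM in treated buds at 1 dat. By 6 dat it stood at 89.2, 70.4 and 70.4 FPKM in control buds and under 0.05 FPKM in each treated library. The difference was -5.67 ± 0.40 (adjusted p = 1.09e-05, and 0.621 with the replicate block of tree and day). The 16 isoforms of its gene together stood at 25.9 to 45.6 FPKM in treated buds at 6 dat and differed by -0.02 (adjusted p = 0.982).

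Among the named transcripts with a higher effect at 6 dat were some for proteins of defence and of the cell wall, whose lists as a whole held more lower than higher calls. P21-like TR26377|c0_g3_i1, a thaumatin-type protein, held 19.8, 11.1 and 11.3 FPKM in control and 12.5, 19.7 and 8.83 FPKM in treated buds at 1 dat. Later, at 6 dat, it stood at 8.82, 8.11 and 10.1 FPKM in control and 170, 219 and 120 FPKM in treated buds. Overlapping groups had become separate ones. The difference was 4.18 ± 0.44 (adjusted p = 0.000207), and it rose by 3.62 in treated buds (adjusted p = 1.32e-06). A basic endo-1,3-beta-glucosidase (TR24907|c0_g2_i2), of the enzymes that cleave callose, was under 0.2 FPKM in all 6 libraries at 1 dat. After 6 days it held 0.502, 1.55 and 1.24 FPKM in control and from 8.20 to 43.7 FPKM in treated buds, a difference of 3.79 ± 0.65 (adjusted p = 0.00605).

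A glycine-rich wall protein (TR1397|c0_g1_i1) held 0.651, 0.214 and 0.593 FPKM in control and 0.233, 1.36 and 0.822 FPKM in treated buds at 1 dat. Values at 6 dat were 1.51, 1.79 and 4.06 FPKM in control and 23.9, 24.2 and 42.9 FPKM in treated buds. Groups that overlapped at 1 dat were separate at 6 dat, and the difference was 3.09 ± 0.55 (adjusted p = 0.00741). A pathogenesis-related protein 1 (TR36048|c0_g1_i1), a marker of defence in other plants, differed by 2.99 ± 0.60 (adjusted p = 0.0156). In the fit with the replicate block of tree and day, the adjusted p were 0.102 for the glucosidase TR24907|c0_g2_i2, 0.0705 for TR1397|c0_g1_i1 and 0.0760 for TR36048|c0_g1_i1. With trees 5 and 6 only at 1 dat, they were 0.0519 and 0.0877 for the last 2.

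Enzymes that appeared late included 2 P450 transcripts and a peroxidase. CYP704B1 (TR9254|c1_g1_i1), of a family that makes pollen wall precursors in *Arabidopsis*, was at most 0.452 FPKM at 1 dat in either treatment. The 6 dat values were 0, 0.0294 and 0.732 FPKM in control and 4.88, 9.70 and 2.85 FPKM in treated buds, a difference of 3.23 ± 0.59 (adjusted p = 0.00889). Peroxidase 21 (TR39304|c0_g1_i2) reached 4.56, 5.94 and 4.13 FPKM in treated buds at 6 dat, from 0.0652, 0.0612 and 0.177 FPKM at 1 dat. Control buds held 0.0344, 0 and 0.0308 FPKM at 1 dat and 0.315, 0.279 and 0.314 FPKM at 6 dat, and the difference was 2.53 ± 0.37 (adjusted p = 0.00182). At such low levels the pseudocount counts, and with 0.1 FPKM in place of 0.5 FPKM the adjusted p were 0.0563 and 0.0806. CYP71A25 (TR26711|c0_g1_i1) differed by 2.35 ± 0.39 (adjusted p = 0.00497, and 0.0544 with a pseudocount of 0.1 FPKM). Under the replicate block of tree and day, the adjusted p for CYP704B1 was 0.108. Its 3 isoforms together held 0 to 8.66 FPKM in control and 7.95 to 54.6 FPKM in treated buds at 6 dat, with overlap. Their summed difference was 4.35 (adjusted p = 0.0351 in the fit of isoforms summed per gene).

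*UGT85A19* (TR37845|c4_g2_i1), described as a glucosyltransferase and named by the study for prunasin synthesis, grew in both treatments and more in treated buds. At 1 dat it held 0.592, 0.717 and 1.13 FPKM in control and 3.15, 1.94 and 3.93 FPKM in treated buds. By 6 dat it stood at 3.33, 3.54 and 3.30 FPKM in control and 29.2, 26.6 and 62.1 FPKM in treated buds. Treated buds stood above control buds at both days, with effects of 1.4 and 3.25 and a difference of 1.85 ± 0.41 (adjusted p = 0.0276). The call was lost without treated tree 4 or 5 at 1 dat (adjusted p = 0.0523 and 0.0726), control tree 5 or 6 at 1 dat (0.0542 and 0.0695), or control tree 4 or 5 at 6 dat (0.0650 and 0.0553), with the replicate block of tree and day (0.141), with trees 5 and 6 only at 1 dat (0.0726), with a pseudocount of 0.1 FPKM (0.0942) and with the 12 libraries alone (0.0723). The P450 transcript named *CYP71AN24* (TR12239|c1_g1_i2), of the same route, differed by 0.40 ± 0.54 (adjusted p = 0.826). It is the lesser isoform of its gene at 1 dat, and the other, TR12239|c1_g1_i1, held 11.9, 10.7 and 11.2 FPKM in control and 70.8, 33.4 and 50.9 FPKM in treated buds at 1 dat. At 6 dat that isoform held 5.03, 7.17 and 7.57 FPKM in control and 4.37, 1.72 and 2.60 FPKM in treated buds, a difference of -3.20 ± 0.40 (adjusted p = 0.000752). Both isoforms together differed by -2.03 (adjusted p = 0.00153).

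Of 170 receptor-like kinase transcripts tested, 9 had a higher effect (5.29%) and 4 a lower one (2.35%) at 6 dat. Their median effect was 1.06 at 1 dat and 1.24 at 6 dat, and their median difference of -0.218 had the sign of that of all described transcripts. Disease resistance and pathogenesis-related proteins gave 1 higher and 2 lower of 89, with a median effect of 1.37 and 1.08. In most members of both lists no change of the treatment effect between the days was called.

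**Figure D5:**
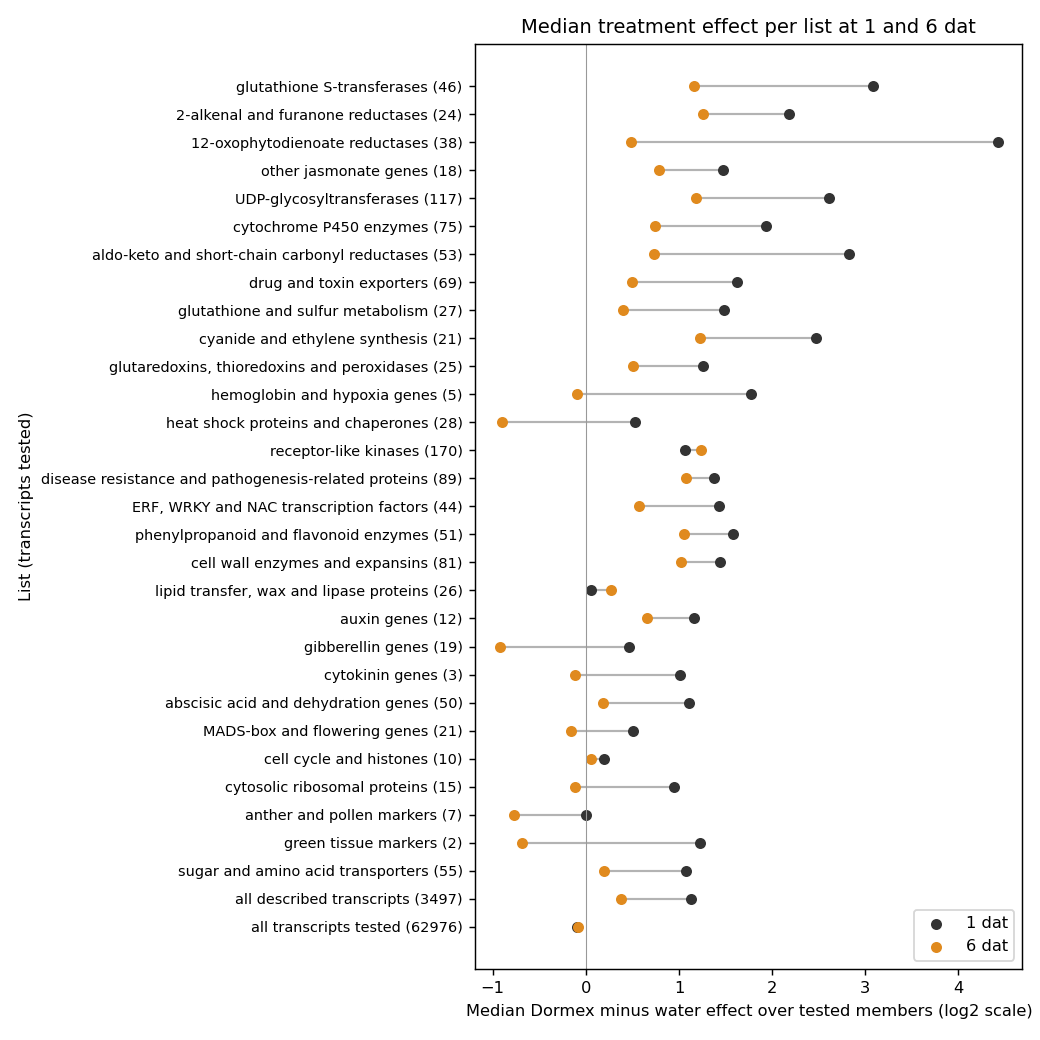
Median treatment effect over the tested members of each list at 1 dat (dark) and at 6 dat (orange), on the log2(FPKM + 0.5) scale, with the number tested in brackets. The 12-oxophytodienoate reductases move from 4.42 to 0.487, receptor-like kinases from 1.06 to 1.24, and all described transcripts from 1.13 to 0.377.

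Lists that mark tissue or development gave few calls. None of 21 MADS-box and flowering transcripts was called in either direction. Their summed level was 496 to 621 FPKM in control and 405 to 449 FPKM in treated buds at 1 dat. At 6 dat it was 295 to 346 FPKM in control and 174 to 195 FPKM in treated buds. These genes of flower tissue were thus present, with lower sums in treated buds at both days. The cell cycle and histone sum was also lower in treated buds, at 778 to 834 against 1064 to 1224 FPKM at 1 dat. At 6 dat it was 500 to 633 against 845 to 1048 FPKM. The ribosomal sum was higher in treated buds at 1 dat, at 52.4 to 88.5 against 34.3 to 48.3 FPKM, and overlapped at 6 dat. In 15 cytosolic ribosomal transcripts no difference was called. In 10 cell cycle and histone transcripts 1, the histone H2B TR41395|c0_g1_i1, had a lower effect at 6 dat. The histone call was lost without treated tree 5 or 6 at 1 dat (adjusted p = 0.0534 each), treated tree 5 at 6 dat (0.0603) or control tree 5 at 1 dat (0.0556), with the replicate block of tree and day (0.0705) and with trees 5 and 6 only at 1 dat (0.0682). One of the 7 anther and pollen transcripts, SF21-like TR13512|c0_g1_i4, had a lower effect at 6 dat, with a difference of -2.35. Its call was lost without control tree 5 at 1 dat (adjusted p = 0.0572) and with the replicate block of tree and day (0.129), and the isoforms of its gene together differed by -0.28 (0.395). Of the 2 green tissue transcripts, 1 had a lower effect at 6 dat. Together they summed to 42.7 to 47.6 FPKM in treated buds at 1 dat, 6.49 to 9.89 FPKM in control buds at 1 dat, 7.14 to 9.90 FPKM in control buds at 6 dat and 8.33 to 15.0 FPKM in treated buds at 6 dat. This level moved with the early effect, and its part in the results was not tested. FPKM sums ran from 671152 to 760090 over the 21 libraries, but FPKM are already scaled per library. Of the 21 libraries, 20 correlated best with a library of their own group. Treated tree 6 at 6 dat had the fewest transcripts at 0.5 FPKM or more, 54483. Control tree 5 at 6 dat had the most of the 12 libraries of the difference, 62704.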

How the data were processed

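RNAseq libraries of sweet cherry flower buds were compared as deposited. The authors trimmed the reads (Trimmomatic 0.33 in the processing notes), assembled a transcriptome, mapped reads to it with STAR (version not given in the sources used here) and computed FPKM per transcript with eXpress 1.5.1, and the deposited FPKM table, with 112043 transcripts of 48840 assembled genes, was the source of each value. FPKM are scaled to the fragments of each library, so a large change of a few genes shifts all others, and the depth per library is not in the table, so that no counting interval can be given. Reads shared by isoforms are divided by the model of eXpress, and values near 0 can be estimates.

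Of these, the transcripts averaging 0.5 FPKM or more in the 18 libraries of 1, 3 and 6 dat were fitted on log2(FPKM + 0.5) with limma 3.58.1 (eBayes with a trend) in R 4.3.3. Replicates 1, 2 and 3 are trees 4, 5 and 6 in every group. The pairing comes from the labels, and treated and control libraries of the same tree and day deviated together little, with a correlation of -0.0145 to 0.0592 over 9 pairs and of up to 0.126 between different trees. The fit reported has no block, and 2 fits with a block were alternatives, along with other pseudocounts, filters, scalings, sets of libraries and the omission of each library. The study's methods name fewer replicates at 1 dat than there are libraries, and do not say which were left out. Trees 5 and 6 alone were an alternative chosen here, and other pairs of trees were not tried.

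On simulated data with the spread of these libraries, 40% of differences of 1.5 and 65% of differences of 3 on the log2 scale were recovered, and 4 unchanged transcripts were called among 62247 tested. The changed transcripts were drawn only from those well above the minimum mean of 0.5 FPKM. All others were simulated without any effect of treatment or day. Recovery at lower levels was not tested.

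Descriptions of 4957 transcripts came from the study's supplementary tables (names only), and 29 lists were built from them by words in the descriptions. Named transcripts are those the study selected, the 20 largest described differences in each direction with a group mean of at least 5 FPKM (1 per assembled gene), the 2 largest called members of each list, and the 10 largest described differences called in opposite directions at the 2 days. Members and lists were chosen with earlier results of these data known. Tables were summarised with Python 3.11.15, pandas 2.3.3 and matplotlib 3.10.9.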

Additional observations from a re-analysis of the deposited data

Results flagged for a closer look

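The change of effect between the days is the comparison of the report itself, so only described transcripts called in opposite directions at 1 and 6 dat are listed here, each with its tested difference. The difference was -5.40 in TR24076|c0_g2_i1 (class I heat shock protein), -4.88 in TR33081|c1_g1_i4 (glutathione S-transferase), -3.96 in TR26945|c3_g2_i2 (heat shock 70 kDa protein) and -3.37 in TR13825|c0_g1_i1 (CML19). It was -3.24 in TR31322|c0_g1_i13 (U2AF isoform), -3.20 in TR12239|c1_g1_i1 (cytochrome P450 71A1-like), -3.13 in TR19776|c0_g2_i3 (gibberellin 3-oxidase) and -3.03 in TR14243|c0_g1_i1 (methionyl-tRNA synthetase). In TR37886|c4_g3_i20, described by the name of isovaleryl, it was -3.08, whereas the 20 isoforms of that gene together differed by 0.84 (adjusted p = 0.0479 in limma). The call of that isoform was lost with the replicate block of tree and day (adjusted p = 0.0706) and with trees 5 and 6 only at 1 dat (0.0831). FKBP17-2 (TR12998|c1_g3_i1) alone turned upward, by 5.12. In TR33081|c1_g1_i4, control buds held 4.61, 3.13 and 8.25 FPKM at 1 dat and 38.6, 39.0 and 16.9 FPKM at 6 dat, and treated buds 34.3, 48.1 and 60.4 and then 14.4, 5.75 and 6.70 FPKM.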

How the results depend on the processing

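With the replicate block of tree and day, 137 lower and 35 higher effects were called, of which 133 and 34 were among the 654 and 351, and with trees 5 and 6 only at 1 dat 291 and 123. Without a fold change threshold, 536 higher effects were called. Leaving out each of the 12 libraries gave 394 to 827 lower and 218 to 394 higher effects. Of 107 named transcripts tested, 89 were called, and 31 of these kept their call and direction under each of the transcript-level alternatives, while 58 lost the call under at least 1. No called transcript among those named reversed its direction under these alternatives, and 2 that were not called passed under at least 1 of them. Summing the isoforms of a gene could give the opposite sign. TR27005|c3_g2_i3 differed by 3.57, and the 7 isoforms of its gene together by -0.93 (adjusted p = 0.0483 in limma). The gene of TR37886|c4_g3_i20 is another such case. The tree as a replicate block gave 590 and 314. The causes of these changes were not tested. With 3 branches per group the simulated data gave back 40% of differences of 1.5 in transcripts above the lowest levels. FPKM do not show how many reads stand behind a low value.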

Other observations

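Some described transcripts outside the gene groups of the report also had a higher effect at 6 dat. A heterogeneous nuclear ribonucleoprotein A3 homolog (TR12909|c1_g1_i5), of a family of RNA-binding proteins, held 5.11, 5.54 and 4.62 FPKM in control and 149, 74.6 and 83.2 FPKM in treated buds at 6 dat. At 1 dat it held 0.411 to 0.885 FPKM in control and 1.18 to 3.99 FPKM in treated buds, so both treatments rose and the treated buds more. The difference was 2.74 ± 0.48 (SE, adjusted p = 0.00732 in limma, and 0.0886 with the replicate block of tree and day). TR26666|c0_g1_i2, an uncharacterized protein, reached 563, 380 and 435 FPKM in treated buds at 6 dat, against 19.3, 25.2 and 18.9 FPKM in control buds and at most 2.40 FPKM in any library at 1 dat. Its difference was 4.63 ± 0.72 (SE, adjusted p = 0.00308 in limma, and 0.105 with that block).

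A NAC domain protein (TR12984|c3_g1_i2), of a plant family of transcription factors, rose in control buds after 1 dat. It stayed below the 1 dat level of treated buds there. It held 9.22, 8.07 and 8.36 FPKM in control and 155, 159 and 188 FPKM in treated buds at 1 dat, and 72.3, 79.8 and 47.1 and 141, 79.6 and 78.3 FPKM at 6 dat. Control buds rose by 2.85 on the log2 scale while the change of -0.79 in treated buds did not pass the test (adjusted p = 0.115 in limma), and the difference was -3.65 ± 0.46 (SE, adjusted p = 0.000804).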
